A study of Rattus norvegicus with 192 samples.

Results

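Pituitary gene expression was compared between rats given perfluorooctane sulfonate (PFOS) and rats given the corn oil vehicle. The comparison took every pituitary library labelled PFOS (P25 to P36) and every pituitary library labelled as vehicle control (P1 to P12), which gave 24 of the 192 libraries of the series. The animals were adult wild-type male Crl:CD(SD) rats. The PFOS rats received 3 mg per kg body weight each day by oral gavage for 7 days, from postnatal day 56 to 62, and the vehicle rats received corn oil on the same schedule. A pair of further pituitary groups was used to look at the same PFOS dose in other libraries. The model behind the test of PFOS against all vehicle libraries also included these groups. These were 12 libraries of rats given 3 mg per kg PFOS together with 8 mg per kg vancomycin, called the combination here, and 12 libraries of rats given 8 mg per kg vancomycin alone. Expression was measured by 3' bulk RNA barcoding, in which reverse transcription gives the polyadenylated RNA of every well its own tag and the wells are then pooled. The labels do not say whether each library came from a separate animal, so the p-values measure the spread between these libraries.

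The anterior pituitary holds several endocrine cell types, each known by the hormone it secretes. Thyrotropes secrete thyroid-stimulating hormone (TSH), a dimer of a specific beta chain encoded by Tshb and an alpha chain encoded by Cga that is shared with the gonadotropins. Hypothalamic TSH-releasing hormone stimulates thyrotropes, and thyroid hormone from the thyroid gland represses Tshb and Cga, so that their transcripts are commonly read as a gauge of thyroid hormone feedback. PFOS is a persistent fluorinated surfactant that lowers circulating thyroxine in rats and activates nuclear receptors such as PPARα and CAR in liver.

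The libraries of vehicle wells P1 to P5 differed from all other pituitary libraries in the well barcode, the 6-base tag that assigns reads to a well. Barcodes are shown because results below turn on this split. Capitals mark G and C, each tag is written 5' to 3' as the labels give it, and the first 3 lines are PFOS wells, the next 5 are vehicle wells P1 to P5 and the last 3 are other vehicle wells.
PFOS P25: CGtCGC
PFOS P30: GCaGGC
PFOS P36: GCGtGG
vehicle P1: GGaCat
vehicle P2: GtCaaG
vehicle P3: tCCaaC
vehicle P4: ttGtCC
vehicle P5: CtCtCC
vehicle P6: aCCCGG
vehicle P7: aCGCGC
vehicle P12: CCaCGC
All 12 PFOS barcodes held 5 G or C bases. Of the vehicle barcodes, those of P1 to P4 held 3, that of P5 held 4 and those of P6 to P12 held 5. The main results are therefore given against all 12 vehicle libraries and against the 7 vehicle libraries P6 to P12, whose barcodes matched the PFOS wells in G and C content. Each treatment also filled its own plate row (G for PFOS, H for the combination, E for vehicle and F for vancomycin), so the effect of a treatment and that of its row on the plate cannot be told apart.

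No pituitary library fell under 100000 total counts. Totals ran from 231929 to 924820 with a median of 516188 in PFOS libraries, and from 303936 to 948968 with a median of 376310 in vehicle libraries. The mean difference, 87422 counts more in PFOS libraries, lay within the spread (two-sided permutation test, p = 0.287). Growth hormone (Gh1) took 30.2% ± 5.58 of all counts in PFOS libraries and 30.9% ± 5.02 in vehicle libraries (SD, n = 12 each), against a mean of 0.447% in the hypothalamus libraries of the series. Among the other pituitary libraries, combination library P48 stood apart with 2804779 counts and a Gh1 share of 9.23%. Levels below are counts scaled to a common library total (CPM) after scaling of library sizes with trimmed mean of M values factors. A log2 fold change is positive where PFOS was higher, its standard error is written SE, and "called", "rose" and "fell" refer to an adjusted p-value under 0.05 in the edgeR quasi-likelihood test with Benjamini-Hochberg adjustment over all genes tested.

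The hormone transcripts did not pass the test in either comparison. Tshb ran from 4112 to 13103 CPM with a median of 6184 in PFOS libraries, from 3462 to 13460 CPM with a median of 6353 in vehicle P1 to P5, and from 4559 to 10343 CPM with a median of 8482 in vehicle P6 to P12. The groups overlapped throughout, and 2 of 12 PFOS libraries lay below the lowest P6 to P12 library. Tshb had a log2 fold change of -0.04 (SE 0.22) against all vehicle libraries, and -0.11 against P6 to P12 with a 95% confidence interval of -0.61 to 0.38.

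Cga had the smallest standard error of the TSH and gonadotropin subunits. Its level ran from 13289 to 23022 CPM with a median of 18316 in PFOS libraries, from 13282 to 28534 CPM with a median of 15684 in vehicle P1 to P5, and from 13370 to 27827 CPM with a median of 19664 in vehicle P6 to P12. The log2 fold change was -0.14 (SE 0.12) against all vehicle libraries and -0.19 against P6 to P12 (95% interval -0.46 to 0.07). Since Cga is made in thyrotropes and gonadotropes alike, its level does not separate these cells. In bulk RNA, fewer cells of a type and less RNA per cell cannot be told apart.

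**Figure D1:**
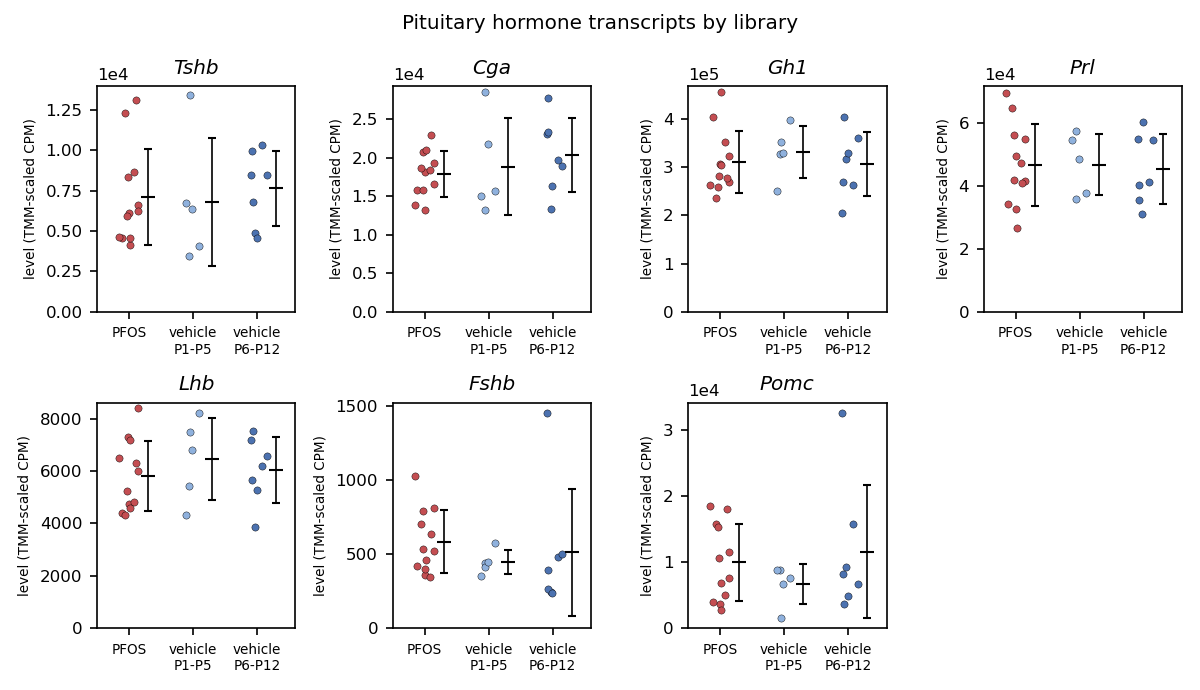
Levels of 7 pituitary hormone transcripts in TMM-scaled CPM, 1 point per library, with the group mean and SD beside the points, for PFOS (12 libraries), vehicle P1 to P5 (5) and vehicle P6 to P12 (7). The groups overlap for every hormone, and vehicle library P7 stands far above the others for Fshb (1454 CPM) and Pomc (32639 CPM).

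Gh1, the product of somatotropes and a gene that thyroid hormone induces in rat pituitary, averaged 310889 ± 64742 CPM in PFOS libraries and 317142 ± 59946 CPM in vehicle libraries (SD, n = 12 each). For Gh1 the log2 fold change was -0.03 (SE 0.13) against all vehicle libraries and 0.01 against P6 to P12 (95% interval -0.29 to 0.32). Prl, which encodes the lactotrope hormone prolactin, averaged 46810 ± 12993 CPM in PFOS libraries and 46082 ± 10146 CPM in vehicle libraries, with a log2 fold change of 0.02 (SE 0.13) against all vehicle libraries and 0.04 (SE 0.15) against P6 to P12. Both values stayed close to 0 without vehicle library P7 of P6 to P12, at -0.07 (SE 0.15) for Gh1 and 0.09 (SE 0.16) for Prl.

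The gonadotropin beta chains were also not called. Lhb (luteinizing hormone) averaged 5815 ± 1334 CPM in PFOS libraries and 6212 ± 1340 CPM in vehicle libraries, a log2 fold change of -0.10 (SE 0.13) against all vehicle libraries and -0.06 (SE 0.16) against P6 to P12. Fshb (follicle-stimulating hormone) ran from 349 to 1030 CPM with a median of 526.4 in PFOS libraries, from 355 to 574 CPM with a median of 444 in vehicle P1 to P5, and from 239 to 1454 CPM with a median of 397 in vehicle P6 to P12. The value of 1454 CPM came from P7, the deepest vehicle library, and the next highest of P6 to P12 had 502 CPM. Against P6 to P12 the log2 fold change of Fshb was 0.17 (95% interval -0.43 to 0.76), and without P7 it was 0.72 (95% interval 0.16 to 1.27, edgeR adjusted p = 0.601).

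Pomc, the precursor of adrenocorticotropic hormone and melanotropins, was the most variable hormone transcript. It ran from 2703 to 18555 CPM with a median of 9115 in PFOS libraries, from 1521 to 8902 CPM with a median of 7610 in vehicle P1 to P5, and from 3668 to 32639 CPM with a median of 8167 in vehicle P6 to P12. The highest value was again that of P7, followed by 15752 CPM. The log2 fold change was 0.06 (SE 0.35) against all vehicle libraries, -0.22 against P6 to P12 (95% interval -1.003 to 0.57) and 0.30 (95% interval -0.48 to 1.08) against P6 to P12 without P7. Pomc is made in corticotropes and, more abundantly, in melanotropes of the intermediate lobe, and the share of that lobe in each dissected sample was not measured.

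Of 26 genes listed for the thyroid hormone axis in pituitary, 9 were abundant enough to be tested against all vehicle libraries and 10 against P6 to P12. None was called, while 1.19% of all genes tested against the 12 vehicle libraries were called. Their median log2 fold change was -0.04 against all vehicle libraries and -0.15 against P6 to P12, beside medians over all tested genes of 0.00011 and -0.01. The receptor for TSH-releasing hormone, Trhr, averaged 16.8 ± 8.57 CPM in PFOS libraries and 19.9 ± 6.61 CPM in vehicle libraries, with a log2 fold change of -0.28 (SE 0.25) against all vehicle libraries and -0.19 (SE 0.30) against P6 to P12, or -0.02 (SE 0.33) without P7.

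Dio2, the deiodinase that converts thyroxine to the active hormone within the pituitary, had the largest difference of the axis genes tested against all vehicle libraries. It ran from 16.6 to 45.2 CPM with a median of 33.04 in PFOS libraries, from 22.7 to 54.6 CPM with a median of 29.6 in vehicle P1 to P5, and from 17.5 to 69.3 CPM with a median of 41 in vehicle P6 to P12. Dio2 had a log2 fold change of -0.31 (SE 0.21) against all vehicle libraries and -0.42 against P6 to P12 (95% interval -0.90 to 0.06, edgeR unadjusted p = 0.0884). All 3 groups overlapped. Thrb, the thyroid hormone receptor that mediates feedback in thyrotropes, averaged 29.4 ± 10.3 CPM in PFOS libraries and 28.1 ± 8.46 CPM in vehicle libraries, with a log2 fold change of 0.02 (SE 0.20) against all vehicle libraries and 0.09 (SE 0.24) against P6 to P12, or -0.02 (SE 0.26) without P7.

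The other axis genes tested were the amino acid and thyroid hormone transporter subunit Slc7a5, the thyrotrope transcription factor Tef, the receptor corepressor Ncor1 and the coactivator Ncoa1. Against all vehicle libraries their log2 fold changes were 0.19 (SE 0.24) for Slc7a5, 0.13 (SE 0.18) for Tef, 0.10 (SE 0.25) for Ncor1 and -0.15 (SE 0.25) for Ncoa1. Against P6 to P12 they were 0.19 (SE 0.27) for Slc7a5, -0.07 (SE 0.20) for Tef, 0.03 (SE 0.28) for Ncor1 and -0.39 (SE 0.28) for Ncoa1. Without P7 the value was 0.02 (SE 0.29) for Slc7a5 and -0.15 (SE 0.29) for Ncor1. Gata2, a transcription factor of thyrotropes and gonadotropes, was abundant enough to test against P6 to P12 alone, with -0.29 (SE 0.28). The remaining axis genes were too scarce to test. Dio1, the deiodinase that thyroid hormone induces, had 40 counts over the 12 PFOS libraries and 43 over the 12 vehicle libraries. The receptor gene Thra had 96 counts in PFOS and 93 in vehicle libraries. Dio3, the deiodinase that inactivates thyroid hormone, had no count in either group. For these genes no difference was detectable at this depth.

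**Figure D2:**
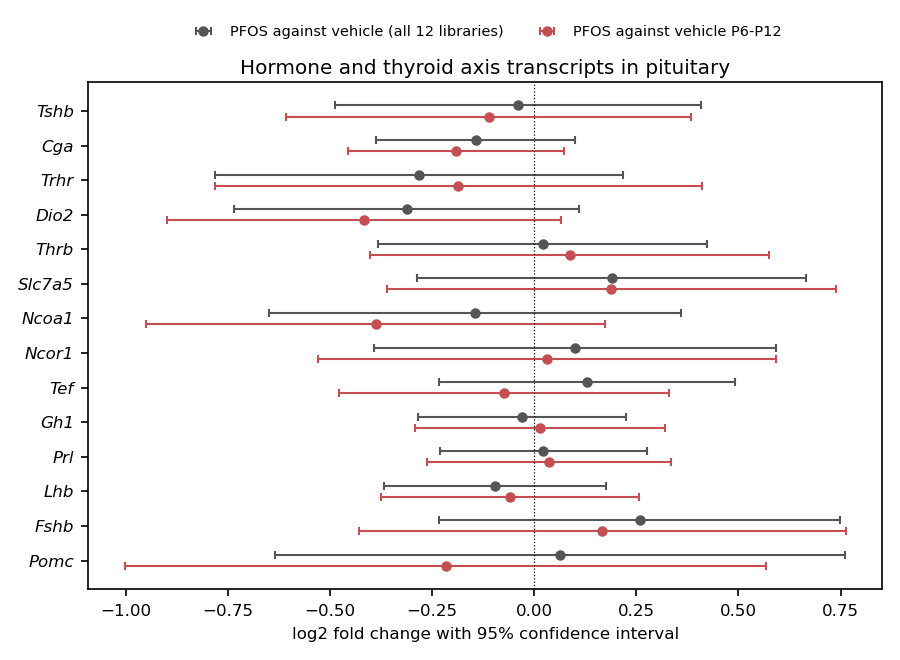
Log2 fold change with its 95% confidence interval for 9 thyroid axis genes and the 5 other hormone transcripts, in PFOS against all 12 vehicle libraries and against vehicle P6 to P12. Every interval includes 0, and the widest is that of Pomc against P6 to P12, from -1.003 to 0.57.

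Genes that thyroid hormone is known to regulate were also listed. Tshb, Cga, Gh1 and Dio2, described above, are among them, so the list is not a separate reading. Of its 17 genes, 8 were tested against all vehicle libraries and 9 against P6 to P12. None was called, and their median log2 fold change was -0.01 against all vehicle libraries and 0.01 against P6 to P12. The lipogenic gene Thrsp, a classical thyroid hormone target in liver, had 80 counts over the PFOS libraries and 64 over the vehicle libraries. Thrsp was tested against P6 to P12 alone, with a log2 fold change of 0.03 (SE 0.36).

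No endocrine cell type list held a called gene, among 6 somatotrope, 6 lactotrope, 4 gonadotrope and 6 corticotrope or melanotrope genes tested. Pou1f1, the transcription factor that specifies thyrotropes, somatotropes and lactotropes, averaged 352 ± 48.5 CPM in PFOS libraries and 348 ± 41.9 CPM in vehicle libraries. Its log2 fold change was 0.03 (95% interval -0.13 to 0.19) against all vehicle libraries and 0.06 (95% interval -0.13 to 0.24) against P6 to P12. The growth hormone-releasing hormone receptor Ghrhr had a log2 fold change of -0.25 (SE 0.16) against all vehicle libraries and -0.23 (SE 0.19) against P6 to P12. Neurod4, a transcription factor that supports somatotrope maturation in mice, had values of 0.29 (SE 0.16) and 0.40 (SE 0.19), with an unadjusted p of 0.0388 in edgeR for the comparison with P6 to P12. The gonadotropin-releasing hormone receptor Gnrhr had -0.28 (SE 0.20) and -0.17 (SE 0.23), and the corticotrope factor Tbx19 had -0.08 (SE 0.15) and -0.24 (SE 0.16).

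Genes of the secretory machinery were not called either. Over all genes tested, 1.19% were called against all vehicle libraries and none against P6 to P12. A short list without a called gene therefore says little about its members, here and for the other lists. Of 25 genes for secretory granules and prohormone processing, 20 were tested and none was called, with a median log2 fold change of -0.0012 against all vehicle libraries and -0.01 against P6 to P12. The granule protein Chgb averaged 1411 ± 141 CPM in PFOS libraries and 1533 ± 175 CPM in vehicle libraries, and its log2 fold change was -0.12 (SE 0.08) against all vehicle libraries and -0.17 (SE 0.09) against P6 to P12. The prohormone convertase Pcsk2 had 0.17 (SE 0.17) and 0.14 (SE 0.17), with 0.25 (SE 0.18) against P6 to P12 without P7. Of 24 genes for calcium and cyclic AMP signalling, 15 were tested against all vehicle libraries and 16 against P6 to P12, none was called, and 12 lay below 0 in each comparison. The protein kinase A catalytic subunit Prkaca had the lowest value of that list against P6 to P12, -0.53 (SE 0.21), and had -0.47 (SE 0.17) against all vehicle libraries.

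Targets of the receptors that PFOS activates in liver were read out next. Of 36 genes for fatty acid oxidation and other PPAR targets, 20 were tested against all vehicle libraries and 21 against P6 to P12. None was called in either comparison, and the median log2 fold change against P6 to P12 was 0.01. Cpt1a, which admits long-chain fatty acids to mitochondria, ran from 21.1 to 72.5 CPM with a median of 48.3 in PFOS libraries, from 61.7 to 133 CPM with a median of 96.4 in vehicle P1 to P5, and from 41.4 to 97.7 CPM with a median of 54.2 in vehicle P6 to P12. For Cpt1a the log2 fold change was -0.65 (SE 0.19, edgeR adjusted p = 0.104) against all vehicle libraries and -0.33 (SE 0.22) against P6 to P12. Cpt2, the enzyme that completes this import, had -0.24 (SE 0.14) and -0.32 (SE 0.16), and the dehydrogenase Acadm had 0.22 (SE 0.13) and 0.23 (SE 0.15).

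Of 28 genes for drug metabolism under CAR and PXR, 7 were tested against all vehicle libraries and 8 against P6 to P12, and none was called. The classical CAR target Cyp2b1 had no count in either group. The glutathione transferase Gstm2 had the lowest p of that list, with a log2 fold change of -0.23 (SE 0.11) against all vehicle libraries and -0.06 (SE 0.12) against P6 to P12. Among 25 genes of the NRF2 response to oxidants, 16 were tested against all vehicle libraries and 17 against P6 to P12, and none was called. Srxn1, which repairs oxidised peroxiredoxins, had 0.50 (SE 0.28) and 0.35 (SE 0.34), with 0.17 (SE 0.35) against P6 to P12 without P7, and the thioredoxin reductase Txnrd1 had -0.35 (SE 0.20) and -0.46 (SE 0.24). Of 16 glucocorticoid-responsive genes, 10 were tested and none was called. The metallothionein Mt2A, which glucocorticoids and metals induce, had 0.39 (SE 0.23) and 0.41 (SE 0.28). Without P7, Mt2A had 0.84 against P6 to P12 (95% interval 0.26 to 1.43, edgeR adjusted p = 0.576).

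Housekeeping machinery was measured with more genes and less error. None of 78 cytosolic ribosomal protein genes tested was called, with a median log2 fold change of 0.17 and 1 of 78 below 0 against all vehicle libraries, and of 0.10 and 6 of 78 below 0 against P6 to P12. Over all genes tested, the medians were 0.00011 and -0.01, and 50.0% and 51.8% of genes lay below 0. In the combination against vancomycin, which uses none of these libraries, these 78 genes had a median of 0.24, with 1 of 78 below 0 and none called. That comparison includes library P48, and a value without it was not computed for this list. Within the vehicle group, P1 to P5 against P6 to P12 had 67 of 78 below 0 and a median of -0.14. Over all genes tested in that contrast, 54.4% lay below 0 and the median was -0.02. Their summed level ran from 79138 to 166667 CPM in PFOS libraries and from 78495 to 181735 CPM in vehicle libraries, so the groups overlapped. Genes of oxidative phosphorylation (75 tested) and of the proteasome (37 tested) had medians of 0.03 and 0.03 against all vehicle libraries and of 0.02 and 0.03 against P6 to P12, with none called. The cytochrome oxidase subunit Cox7c had 0.22 (SE 0.08) against all vehicle libraries and 0.19 (SE 0.09) against P6 to P12.

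Against all 12 vehicle libraries, 52 of 4380 genes were called (1.19%), all of them lower in PFOS libraries. Among the 52 were the sterol regulator Srebf2, the mitochondrial ribosomal protein Mrpl51 and the endoplasmic reticulum genes Ssr3 and Dnajb9. These 4 were the only called genes in any of the 33 gene lists, and the other 48 called genes belonged to none. In edgeR fits of the PFOS and vehicle libraries alone, and of libraries with at least 400000 counts, no gene was called (191 and 236 at an unadjusted p under 0.05). The genes of the 52 that were tested there, 46 and 52 of them, all lay below 0, with medians of -1.02 and -0.73. Over all genes tested in these fits the medians were 0.005 and -0.0031. Both fits reuse libraries in which the 52 were called lower, which favours values below 0. Against vehicle P6 to P12, edgeR called none of 4846 genes, 173 had an unadjusted p under 0.05, and the smallest adjusted p was 0.9997. DESeq2 also called none, with 144 genes at an unadjusted p under 0.05. Without P7, edgeR still called none and 358 genes had an unadjusted p under 0.05.

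The 10 genes that fell most against all vehicle libraries are described first by their levels. Ptp4a2, a membrane-anchored protein tyrosine phosphatase, ran from 25.5 to 98.4 CPM with a median of 61.5 in PFOS libraries. In vehicle P1 to P5 it had 233, 311, 434, 300.5 and 238 CPM, and in vehicle P6 to P12 it ran from 53.7 to 140 CPM with a median of 83.3. The 5 vehicle libraries P1 to P5 were all above every PFOS library and every other vehicle library, while PFOS and P6 to P12 overlapped. The log2 fold change of Ptp4a2 was -1.52 (SE 0.26, edgeR adjusted p = 0.00109) against all vehicle libraries and -0.54 (SE 0.20, adjusted p = 0.9997) against P6 to P12. Vehicle P1 to P5 against P6 to P12 gave 1.73 (SE 0.21).

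Hs6st1, an enzyme that sulfates heparan sulfate chains, showed the same arrangement. It ran from 33.6 to 133 CPM with a median of 66.8 in PFOS libraries. In vehicle P1 to P5 it had 268, 364, 465, 238 and 241 CPM, and in P6 to P12 it ran from 35.8 to 214 CPM with a median of 84.4. All 5 libraries of P1 to P5 lay above all 19 others of the PFOS and vehicle groups. Hs6st1 had a log2 fold change of -1.52 (SE 0.29) against all vehicle libraries and -0.71 (SE 0.29) against P6 to P12, and 1.48 (SE 0.31) in P1 to P5 against P6 to P12.

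Mrpl51, a protein of the large mitochondrial ribosomal subunit, ran from 49.7 to 137 CPM with a median of 84.0 in PFOS libraries. In vehicle P1 to P5 it had 299, 296, 394, 422 and 232 CPM, and in P6 to P12 it ran from 38.01 to 165 CPM with a median of 93.1. Again P1 to P5 did not overlap either of the other sets of libraries. The log2 fold change was -1.35 (SE 0.26) against all vehicle libraries and -0.41 (SE 0.21) against P6 to P12. Mrpl51 was the only 1 of 61 mitochondrial ribosomal protein genes tested that was called, and the median of the 61 was -0.01.

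Zfp644, a zinc finger protein, ran from 6.35 to 31.2 CPM with a median of 17.9 in PFOS libraries. It had 45.1, 74.0, 99.2, 108 and 66.4 CPM in vehicle P1 to P5, and ran from 20.1 to 52.6 CPM with a median of 29.4 in P6 to P12. Here 7 of 12 PFOS libraries lay below the lowest library of P6 to P12. The log2 fold change was -1.44 (SE 0.25) against all vehicle libraries and -0.73 (SE 0.25, edgeR unadjusted p = 0.00461, adjusted p = 0.9997) against P6 to P12.

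The remaining 6 of the 10 were Zfp280b, another zinc finger protein, Poldip3, which acts in messenger RNA export, Fbxo21, a substrate receptor of a ubiquitin ligase, Ppp1r15b, which directs protein phosphatase 1 to a translation initiation factor, the Wnt receptor Fzd6 and the choline transporter Slc44a1. Their log2 fold changes ran from -1.58 for Zfp280b to -1.41 for Slc44a1 against all vehicle libraries. Against P6 to P12 they ran from -0.85 for Zfp280b to -0.49 for Slc44a1, with none called. In P1 to P5 against P6 to P12 they ran from 1.28 for Fbxo21 to 1.72 for Ppp1r15b. For Fzd6, 1 PFOS library had no count, and all 5 libraries of P1 to P5, at 47.5, 77.0, 87.9, 48.7 and 62.9 CPM, exceeded the highest of P6 to P12 (38.6 CPM) and of PFOS (21.5 CPM).

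**Figure D3:**
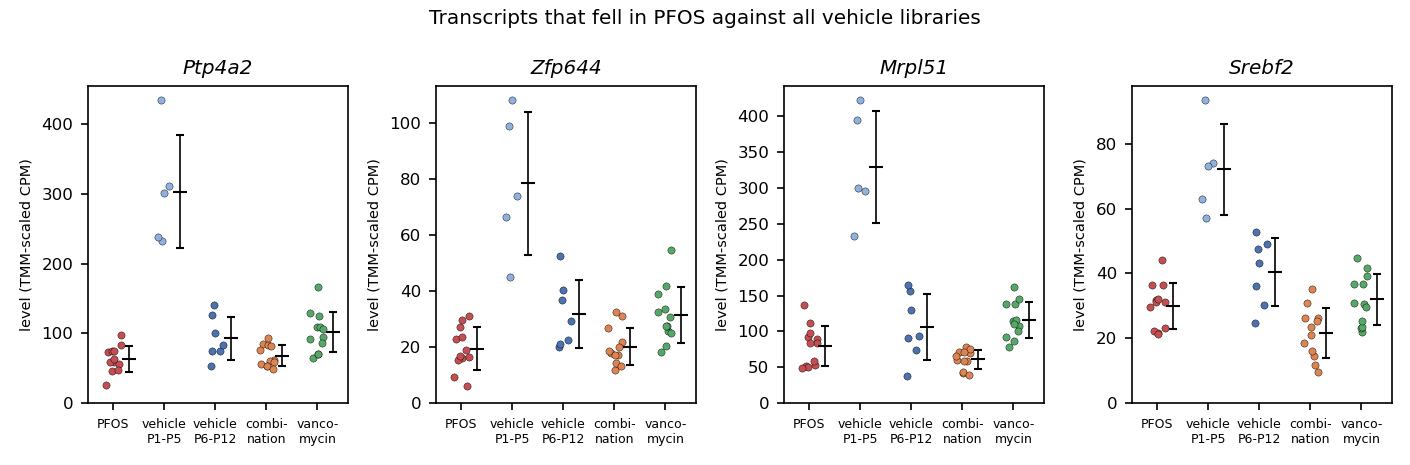
Levels of Ptp4a2, Zfp644, Mrpl51 and Srebf2 in TMM-scaled CPM, 1 point per library with group mean and SD, for PFOS (12 libraries), vehicle P1 to P5 (5), vehicle P6 to P12 (7), combination (12) and vancomycin (12). Vehicle P1 to P5 stand above every PFOS library in each panel (Ptp4a2 from 233 to 434 CPM, against at most 98.4 CPM in PFOS), while PFOS and vehicle P6 to P12 overlap.

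Srebf2, the transcription factor that drives cholesterol synthesis and uptake, was the only called gene of 19 tested in its list. It ran from 21.3 to 44.1 CPM with a median of 31.1 in PFOS libraries, had 56.9, 74.0, 93.6, 73.1 and 62.9 CPM in vehicle P1 to P5, and ran from 24.6 to 52.6 CPM with a median of 43.4 in P6 to P12. Srebf2 had a log2 fold change of -0.80 (SE 0.18, edgeR adjusted p = 0.00566) against all vehicle libraries and -0.38 (95% interval -0.78 to 0.01) against P6 to P12. The other genes of the list were not called. Dhcr7, which catalyses the last step of cholesterol synthesis, had -0.40 (SE 0.20) and -0.35 (SE 0.23). Over the whole list, 13 of 19 genes lay below 0 against all vehicle libraries and 11 of 19 against P6 to P12, with medians of -0.11 and -0.02. Of 19 fatty acid synthesis genes, 7 were tested against all vehicle libraries and none was called.

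Ssr3 and Dnajb9 were the 2 called genes of 26 tested for protein folding in the endoplasmic reticulum. Ssr3, a subunit of the complex that assists protein translocation into the endoplasmic reticulum, ran from 223 to 631 CPM with a median of 396 in PFOS libraries. It had 854, 994, 1647, 1321 and 779 CPM in vehicle P1 to P5 and ran from 238 to 723 CPM with a median of 436 in P6 to P12. Ssr3 had a log2 fold change of -0.99 (SE 0.22, edgeR adjusted p = 0.0064) against all vehicle libraries and -0.29 (SE 0.19) against P6 to P12. Dnajb9, a co-chaperone induced by the unfolded protein response, ran from 35.7 to 105 CPM in PFOS libraries, had 142, 154, 312, 265 and 119 CPM in P1 to P5, and ran from 74.4 to 161 CPM in P6 to P12. Its log2 fold change was -0.92 (SE 0.18) and -0.42 (SE 0.15, edgeR unadjusted p = 0.00673). The median of the 26 genes was 0.02 against all vehicle libraries and -0.02 against P6 to P12.

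Within the vehicle group alone, P1 to P5 against P6 to P12 gave 73 called genes of 5034, of which 72 were higher in P1 to P5 (1.43% of genes tested) and 1 was lower (0.0199%). This contrast shares its libraries with the PFOS comparisons, so values are only set side by side. Of the 52 genes called in PFOS against all vehicle libraries, 44 were called higher in P1 to P5, with a median log2 fold change of 1.24. The same genes had a median of -1.04 in PFOS against all vehicle libraries and -0.42 against P6 to P12, where they ran from -0.92 to -0.04, 52 of 52 lay below 0 and 21 had an unadjusted p under 0.05. Without P7 that median was -0.51 and 37 had an unadjusted p under 0.05, with none called. The 52 genes were called lower with these same PFOS and P6 to P12 libraries among those used. That choice favours values below 0 and small p-values against P6 to P12. Over all genes tested there, 51.8% lay below 0 and 173 of 4846 had an unadjusted p under 0.05 in edgeR. PFOS libraries did not overlap P1 to P5 for 38 of the 52 genes and overlapped P6 to P12 for each of them. These genes were called with P1 to P5 among the vehicle libraries, which favours such a gap. The share of genes without overlap was not computed over all genes tested, so the overlap counts have no background to be read against. Barcode class and well column (columns 1 to 5 against 6 to 12) coincide within the vehicle row, whereas PFOS wells in columns 1 to 5 had the usual barcodes. With well column as a factor, 53 genes were called against all vehicle libraries. Each treatment filled every column of its row, so this term cannot remove a shift confined to vehicle columns 1 to 5. The fit therefore does not separate barcode class from well column.

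The 52 genes took 0.21% to 0.445% of a library's counts in PFOS libraries with a median of 0.348%. They took 0.704% to 1.25% in vehicle P1 to P5 (median 0.907%) and 0.225% to 0.604% in vehicle P6 to P12 (median 0.416%). The PFOS and P6 to P12 ranges overlapped, and P1 to P5 stood apart. Depth moved with these levels within groups. The mean log2(CPM + 1) of the 52 genes was 5.10, 5.07 and 4.99 in the PFOS libraries with 924820, 797915 and 739666 counts, and 5.92 and 5.78 in those with 231929 and 258823 counts. Among vehicle P6 to P12 it was 5.14 in P7 with 948968 counts and 6.497 in P10 with 303936 counts. Vehicle P1 to P5, with 363895 to 551494 counts, ranged from 6.70 to 7.51 and lay above every other pituitary library. With log2 depth as a covariate, 40 genes were called against all vehicle libraries, all among the 52.

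**Figure D4:**
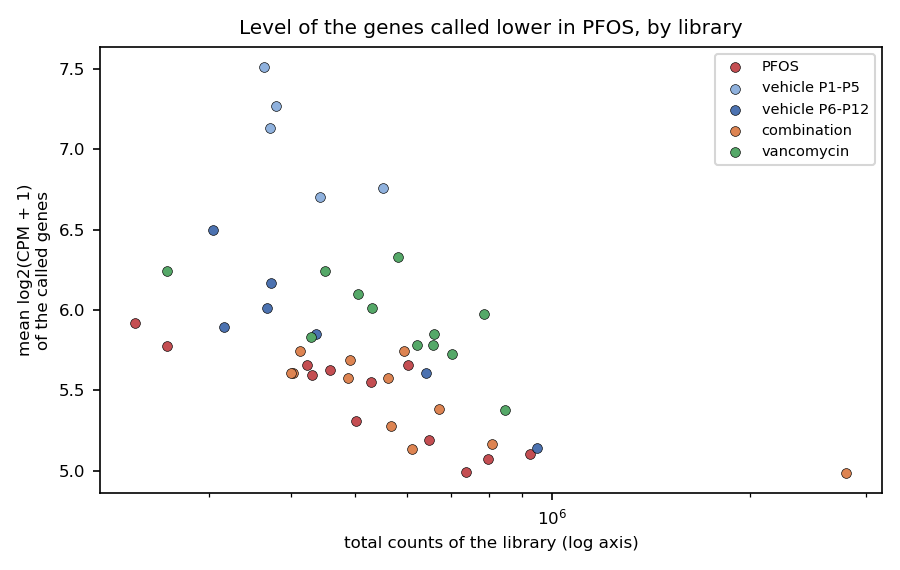
Mean log2(CPM + 1) of the 52 genes called lower in PFOS against all vehicle libraries, against the total counts of each of the 48 pituitary libraries on a log axis. Deeper libraries tend to have lower values within groups, and vehicle P1 to P5 (6.70 to 7.51) lie above all others.

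Barcode classes also occurred within 1 treatment in other tissues, and these libraries have no part in the pituitary comparisons. This comparison was added after the pituitary data were seen. In thyroid of combination rats, 7 libraries with 1 G or C base in the barcode were set against 5 with 2 or 3. There 211 of 5649 genes (3.74%) were called higher with fewer G and C bases, and of the 50 tested among the 52 pituitary genes, 38 were called and 50 lay above 0, with a median log2 fold change of 1.23. In hypothalamus of combination rats, 7 libraries with 1 such base against 4 with 3 gave 229 of 7342 genes called higher (3.12%). Among the 52, 23 were called higher and 51 lay above 0, with a median of 0.78. In liver of vehicle rats, 5 libraries with 3 or 4 such bases against 4 with 5 gave no called gene of 3814 in edgeR (162 at an unadjusted p under 0.05). All 36 of the pituitary genes tested there lay above 0, with a median of 0.76. Over all genes tested, 49.0% lay above 0 in thyroid, 45.3% in hypothalamus and 49.0% in liver. Whether the liver and pituitary libraries of vehicle rats came from the same animals is not given, so animal and barcode cannot be told apart in that tissue. The liver classes also took well columns 1 to 5 against 7, 8, 10 and 12. In thyroid the classes took well columns 1 to 7 against 8 to 12, and library numbers 37 to 43 against 44 to 48. In hypothalamus they took columns 1 to 7 against 9 to 12, and numbers 37 to 43 against 45 to 48. Barcode, well column and any animal behind the number therefore cannot be told apart in any of these tissues.

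Single genes serve as examples. Ptp4a2 had log2 fold changes for fewer over more G and C bases of 1.001 (SE 0.19) in thyroid, 0.67 (SE 0.17) in hypothalamus and 0.65 (SE 0.29) in liver. Dnajb9 had 1.31 (SE 0.32), 0.99 (SE 0.18) and 0.71 (SE 0.37), and Srebf2 had 1.14 (SE 0.31), 0.93 (SE 0.28) and 0.43 (SE 0.41). Mrpl51 had 0.73 (SE 0.26), 0.38 (SE 0.23) and 0.81 (SE 0.40). In edgeR, thyroid and hypothalamus values were called for Ptp4a2 and Dnajb9, that of thyroid alone for Srebf2, and none for Mrpl51.

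**Figure D5:**
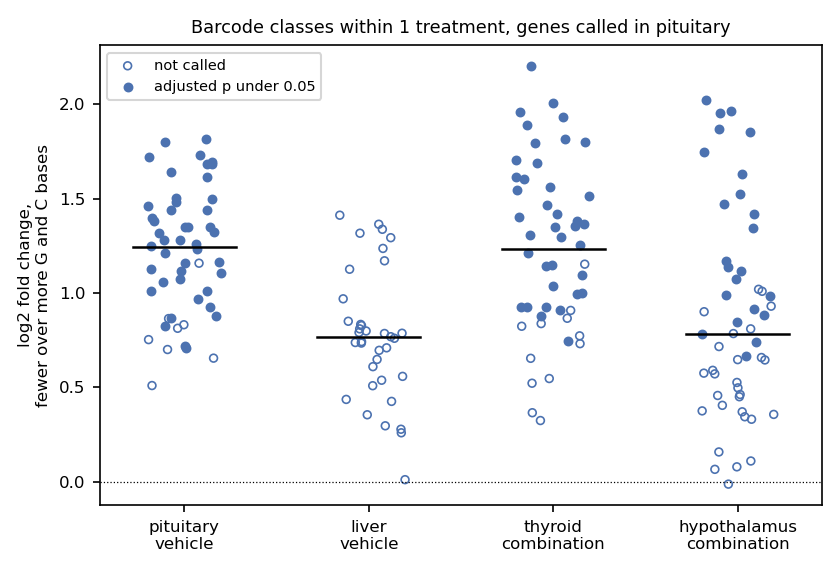
Log2 fold change of the 52 genes, where tested, between libraries with fewer and with more G and C bases in the barcode, within vehicle libraries of pituitary and liver and combination libraries of thyroid and hypothalamus. Filled points have an adjusted p under 0.05, lines are medians (1.24 in pituitary, 0.76 in liver, 1.23 in thyroid and 0.78 in hypothalamus), and 1 point, in hypothalamus, lies below 0.

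The same PFOS dose was also given with vancomycin, in libraries that all had 5 G or C bases in the barcode. The combination against vancomycin called none of 4380 genes in edgeR (295 at an unadjusted p under 0.05) and none in DESeq2 (274). Without combination library P48, none was called in edgeR and 185 had an unadjusted p under 0.05. Of the 52 genes, 51 lay below 0 with a median log2 fold change of -0.50, and 33 had an unadjusted p under 0.05. Without P48 these values were 51, -0.42 and 23. Over all genes tested the median was 0.01, with 48.3% below 0. The 52 genes took 0.242% to 0.388% of counts in combination libraries (median 0.340%) and 0.284% to 0.584% in vancomycin libraries (median 0.435%), so these groups overlapped as well.

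Among single genes, Mrpl51 had the lowest p of those named, with 61.2 ± 13.4 CPM in combination libraries and 116 ± 25.1 CPM in vancomycin libraries (SD, n = 12 each). Its log2 fold change was -0.95 (SE 0.26, edgeR unadjusted p = 0.000782, adjusted p = 0.711). Zfp644 averaged 20.3 ± 6.70 CPM in combination libraries and 31.5 ± 10.1 CPM in vancomycin libraries, a log2 fold change of -0.64 (SE 0.24), and Srebf2 averaged 21.6 ± 7.72 CPM in combination libraries and 32.02 ± 7.75 CPM in vancomycin libraries, with -0.53 (SE 0.18). The mean number of G bases in the barcode, apart from the sum of G and C, was 3.42 in combination wells and 2.33 in vancomycin wells, and 2.58 in PFOS wells and 2.14 in vehicle P6 to P12. Its part in these values was not tested. The interaction of PFOS and vancomycin, which uses all 12 vehicle libraries with P1 to P5 among them, called no gene in edgeR (134 at an unadjusted p under 0.05) and none in DESeq2 (130). All 52 genes lay above 0 in it, with a median of 0.60, beside a median of 0.02 over all genes tested. Those genes were called lower with the same PFOS and vehicle libraries, which favours that sign.

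No gene rose in PFOS libraries against either vehicle set. The 5 genes of lowest p in that direction against all vehicle libraries are given as values. Abhd11, a mitochondrial hydrolase, ran from 17.5 to 49.5 CPM with a median of 32.9 in PFOS libraries and from 10.8 to 30.2 CPM with a median of 23.2 in vehicle libraries, with a log2 fold change of 0.56 (SE 0.16, edgeR adjusted p = 0.0831). Btd, the enzyme that recycles biotin, ran from 20.2 to 45.6 CPM with a median of 32.8 in PFOS libraries and from 10.5 to 40.6 CPM with a median of 22.4 in vehicle libraries, with 0.57 (SE 0.18). Unlike the genes that fell, these had similar values against P6 to P12, at 0.61 (SE 0.20) for Abhd11 and 0.78 (SE 0.22) for Btd, and the groups overlapped.

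Ilf2, an RNA-binding protein, had 0.36 (SE 0.12) against all vehicle libraries and 0.41 (SE 0.14) against P6 to P12. Cfdp1, a chromatin protein, had 0.36 (SE 0.11) and 0.28 (SE 0.13). Dele1, which relays mitochondrial stress to the integrated stress response, had 0.36 (SE 0.12) and 0.29 (SE 0.14). In the combination against vancomycin, the 5 genes had values from -0.02 for Btd to 0.10 for Dele1, with intervals that included 0.

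Markers of other cell types were read beside these results, and none was called. Over all genes tested, 50.0% lay below 0 against all vehicle libraries and 51.8% against P6 to P12. That share was 48.3% in the combination against vancomycin and 54.4% in P1 to P5 against P6 to P12. All 7 macrophage markers tested lay below 0 in both comparisons, with a median log2 fold change of -0.16 against all vehicle libraries and -0.15 against P6 to P12, and 1 of 7 lay below 0 in the combination against vancomycin. The macrophage growth factor receptor Csf1r had -0.52 (SE 0.25) against all vehicle libraries and -0.64 (SE 0.29, edgeR unadjusted p = 0.030) against P6 to P12, and the summed macrophage level ran from 708 to 1135 CPM in PFOS libraries and from 751 to 1609 CPM in vehicle libraries. Of 6 fibroblast and pericyte markers, 3 lay below 0 against all vehicle libraries (median 0.01) and 6 against P6 to P12 (median -0.11). These markers were also lower in vehicle P1 to P5 than in P6 to P12, with 6 of 6 below 0 and a median of -0.23. The matrix proteoglycan Dcn had -0.19 (SE 0.11) against all vehicle libraries and -0.29 (SE 0.12) against P6 to P12. Of 7 blood markers, 3 lay below 0 against all vehicle libraries (median 0.01) and 0 against P6 to P12 (median 0.17). Vehicle P1 to P5 exceeded P6 to P12 for 8 of 8 blood markers, with a median of 0.38. The summed blood marker level ran from 5329 to 18211 CPM in PFOS libraries and from 5906 to 13125 CPM in vehicle P6 to P12. The part of these cells in the differences above was not tested.

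Markers of folliculostellate and stem cells (7 tested against all vehicle libraries), pituicytes and posterior lobe (3), endothelium (2), oligodendrocytes (3), hypothalamic neurons (2) and liver (3) also held no called gene. The stem cell factor Sox9 averaged 20.04 ± 10.2 CPM in PFOS libraries (SD, n = 12), had 42.7, 68.1, 87.9, 46.02 and 61.2 CPM in vehicle P1 to P5, and averaged 23.7 ± 16.5 CPM in P6 to P12 (SD, n = 7). Its log2 fold change was -0.91 (SE 0.30, edgeR adjusted p = 0.19) against all vehicle libraries and -0.13 (SE 0.32) against P6 to P12. Sparcl1, a matrix protein of astroglia and pituicytes, had 0.24 (SE 0.13) and 0.34 (SE 0.15), and Lcn2, an iron-scavenging acute-phase protein, had 0.52 (SE 0.26) and 0.37 (SE 0.30). Each was the highest value of its list. Of the 3 pituicyte and posterior lobe markers, 2 lay below 0 against all vehicle libraries (median -0.0049) and 0 against P6 to P12 (median 0.09). Of the folliculostellate and stem cell markers, 4 of 7 lay below 0 against all vehicle libraries and 5 of 8 against P6 to P12. No thyroid marker was abundant enough to test, and their summed level was at most 14.7 CPM in PFOS and 14.8 CPM in vehicle libraries.

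The stress, clock and cell cycle lists held few abundant genes. Of 28 immediate early genes, 6 were tested against all vehicle libraries and none was called, and Jund had the lowest p of these at -0.52 (SE 0.16, edgeR adjusted p = 0.138), with -0.36 (SE 0.19) against P6 to P12 and -0.47 (SE 0.16) in the combination against vancomycin. None of 4 circadian clock and 5 cell cycle genes tested was called.

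The width of the intervals sets what could have been seen. Against P6 to P12, 4531 of 4846 genes (93.5%) had a 95% interval that lay wholly between -1 and 1 on the log2 scale, and the median distance from the estimate to the end of its interval was 0.42. In simulated counts with the totals of the same libraries, 200 genes were changed, 66 or 67 at each fold size. Counts were drawn independently for each gene from 1 mean profile, with no shift by barcode class and no trend with depth. edgeR recovered 35.8% of the 1.5-fold changes, 82.1% of the 2-fold changes and 100% of the 4-fold changes against P6 to P12, and made 7 false calls among the other genes of 4846. Against all vehicle libraries the shares were 59.7%, 95.5% and 100%, with 7 false calls among the other genes of 4380. These shares hold for such simulated counts, and recovery in the real libraries was not measured.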

How the data were processed

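The deposited values were whole-number counts per gene and library, which the authors had not visibly normalized. Per the submitters' processing notes, BWA 0.7.4.4 and the build rn6 were named, their role is not stated, and other steps were not given in the sources used here. The 4 pituitary treatments (48 libraries, 17483 genes, 2880 without a pituitary count) were fitted in 1 edgeR 4.0.16 quasi-likelihood model (R 4.3.3, robust, filterByExpr minimum count 10, TMM factors), and Benjamini-Hochberg adjustment covered all genes tested. Libraries under 100000 counts were to be left out, and 0 pituitary libraries were. Standard errors are the size of the log2 fold change divided by the square root of F. The fit was tested on simulated data. Depth was compared with permutation tests (100000 resamples in scipy 1.17.1).

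Named genes were the 10 largest falls among called genes, the 5 of lowest p in the direction with fewer than 5 calls, the hormones and thyroid axis genes, and up to 3 genes of each other list by p. The members, the 33 gene lists and the tests were chosen with earlier results of these data known. Alternatives were DESeq2 1.42.0, its size factors, hormone genes left out of library sizes, no filter, limma 3.58.1 voom with quality weights, a fit of PFOS and vehicle alone, libraries of at least 400000 counts, well column, log2 depth or barcode G and C bases as terms, thinning, and vehicle P6 to P12 alone. Gene symbols matched a RefSeq name table directly for 15578 genes and by synonym for 1556, and 349 did not match. No 2 pituitary libraries were identical. Results for some listed genes are not reported here.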

Additional observations from a re-analysis of the deposited data

Results flagged for a closer look

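The 114 sets of library values examined were all of vehicle P1 to P5 or of vehicle P6 to P12. PFOS libraries were not examined in this way. Of the 114 sets, 6 held a library that stood far from the others of its group, all in vehicle P6 to P12 (7 libraries). For normally distributed values, chance alone flags about 1 in 20 such sets. Whether the unlogged levels used here are so distributed was not tested. Library P7 had 1454 CPM for Fshb, where the next highest had 502 CPM, and 32639 CPM for Pomc, where the next had 15752 CPM. Library P10 had 161 CPM for Dnajb9 (next 95.6 CPM) and 49.1 CPM for Thrb (next 30.4 CPM). Library P12 had 71.1 CPM for Dele1 (next 56.9 CPM), and library P8 had 63.3 CPM for Tef (next 35.1 CPM).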

How the results depend on the processing

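No paired analysis was possible because the groups compared share no replicate number. The 52 calls in PFOS against all vehicle libraries became 0 with only the groups compared (smallest adjusted p 0.0567), where the 46 of them tested all lay below 0 with a median of -1.02, beside -1.04 over the 52 as reported. They became 0 at a minimum of 400000 counts (10 PFOS and 5 vehicle libraries, median -0.73), 0 with barcode G and C bases as a covariate (-0.43), 0 with vehicle P6 to P12 only (-0.42), and 31 after thinning to 231929 counts, which tested 2604 genes. All these medians come from libraries in which the 52 were called lower, which favours values below 0. The other 8 settings gave 37 to 57 calls, all lower. Among pituitary libraries the number of barcode G and C bases varies only through P1 to P5. The fit with that covariate and the fit with P6 to P12 only are therefore not separate checks. Against P6 to P12 all 11 alternatives gave 0, as did those of the combination against vancomycin and of the interaction. P1 to P5 against P6 to P12 gave between 59 (without P3) and 82 (without P1) calls. Among 699 values of 56 named genes, 626 kept sign and call, 52 lost the call, 1 gained it (Cpt1a, -0.63, with well column) and 20 uncalled values changed sign. At 400000 counts these were Fshb -0.0842, Gh1 0.0065, Pomc -0.21, Slc7a5 -0.17, Ncoa1 0.26, Ghrhr 0.0329 and Tbx19 0.0241. With depth they were Gh1 0.0822, Pomc -0.16, Prl -0.0738 and Ncoa1 0.0158, with barcode bases Gh1 0.0381, Pomc -0.22 and Tef -0.0423, and with P6 to P12 Gh1 0.0137, Pomc -0.22 and Tef -0.0738. Well column gave Tshb 0.0069, and voom gave Thrb -0.025 and Pou1f1 -0.0072. Against P6 to P12 without P7, other values that moved by over 1.5 times or changed sign were Acadm 0.14, Gstm2 -0.12, Sox9 -0.27, Lhb -0.01 and Pou1f1 0.01, none called. Leaving out P48, P7 or each of P1 to P5 was chosen after seeing the data. The causes were not tested.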
